A study of Sus scrofa with 32 samples.

Results

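The genes described here are 49 genes of protein secretion and folding in the endoplasmic reticulum, chosen by symbol from the 25880 genes listed for the pig ileum and blood libraries. Of these, 44 carried their symbol in the matrices, and SPCS2, SRP9, HSP90B1, DNAJB11 and OSTC were found by gene ID. They were followed in 48629 cells of 8 single-cell RNA libraries made from 2 mixed-breed pigs aged 7 weeks, labelled female (pig 1) and male (pig 2). From each pig, the distal ileum gave a library of tissue with Peyer's patches (PP), a library without them (non-PP) and a library of a full cross section (whole ileum), and blood gave a library of peripheral blood mononuclear cells (PBMC). No treatment is named in the labels. The ileal suspensions combined epithelium and lamina propria and were enriched for viable lymphocytes, so the shares of epithelial and stromal cells are not those of the tissue. With 1 library per dissection and pig, n = 2 pigs by label in every comparison.

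Proteins that leave a cell are made at the endoplasmic reticulum. The signal recognition particle brings the ribosome to its receptor on the membrane, the SEC61 channel takes in the growing chain, signal peptidase removes the leader and oligosaccharyltransferase attaches sugars. Chaperones led by HSPA5 (BiP) and the protein disulfide isomerases then fold the chain, cargo receptors carry it to the Golgi apparatus, and misfolded chains are sent for degradation. Antibody-secreting cells, which fill the gut wall, are known for a large endoplasmic reticulum and for the joining chain JCHAIN, the protein that links IgA and IgM units. Epithelial cells of the gut also secrete, which makes them a second reference beside T cells.

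Cells were sorted into classes by a few genes that are not among the 49. A cell with at least 1 CD3E UMI (unique molecular identifier, a count of 1 captured RNA molecule) was taken as a T cell. A cell with CD3E, PTPRC and CD79A at 0 and at least 3 of the epithelial markers was taken as epithelial. All other cells were split by the share of their UMIs that came from JCHAIN, into JCHAIN-low (under 0.5%), JCHAIN-mid (0.5% to 10%) and JCHAIN-high (10% and over). The ileum held 18391 JCHAIN-low cells (7626 in pig 1 and 10765 in pig 2), 245 JCHAIN-mid cells (106 and 139), 232 JCHAIN-high cells (73 and 159), 16117 T cells and 401 epithelial cells. Blood held 6668 JCHAIN-low and 105 JCHAIN-mid cells (50 and 55) but only 3 JCHAIN-high cells, too few to test.

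Markers of antibody-secreting cells and of B cells went with the JCHAIN classes of the ileum. XBP1, IRF4 and PRDM1, transcription factors of antibody-secreting cells, together stood at 2033 and 1668 CPM (counts per 1000000 UMIs) in JCHAIN-high cells (pig 1 and pig 2, leaving out the dominant features described below), 1369 and 1249.9 in JCHAIN-mid cells, and 123 and 130 in JCHAIN-low cells. The 5 B cell markers went the other way, at 1047 and 804 in JCHAIN-high against 2065 and 2139 in JCHAIN-low cells. JCHAIN-low is a mixed class, which also held myeloid markers, summing to 1031 and 843 in the ileum and to 3470 and 3554 in blood. Of these, LYZ made up 135 and 13.5 in the ileum but 2332 and 1989.8 in blood. The same sum read 920 and 655 in JCHAIN-high cells, of which CST3 made up 862 and 598, and 1666 and 773 in epithelial cells, of which LYZ made up 1397 and 541. Epithelial markers summed to 10331 and 9642 in the epithelial class, whose rule required them, and to at most 90 in JCHAIN-high cells. Ileal T cells held T cell markers, among them the CD3E of their rule, at 3564 and 3578. They held B cell markers at 361 and 426. In blood, XBP1, IRF4 and PRDM1 summed to 752 and 769 in JCHAIN-mid against 57.9 and 73.5 in JCHAIN-low cells. Median UMIs per cell also differed, at 8763 and 7466 in JCHAIN-high, 5713 and 4939 in JCHAIN-mid, 2796 and 2739 in JCHAIN-low, and 8697 and 10221.5 in epithelial cells.

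A library stood apart from its label. The library labelled whole ileum pig 1, from the pig labelled female, carried Y-linked UMIs at 206.6 CPM, while the other libraries of pig 1 carried at most 0.224 and those of pig 2 between 119.42 and 225.66. It is part of the ileal sums given for pig 1, and supplied 32 of their 73 JCHAIN-high and 34 of their 106 JCHAIN-mid cells. Its Y-linked level lay within the range of the libraries labelled male. The ileal sums of pig 1 may thus mix animals, and agreement of both pigs in the ileum may not be that of separate animals. Counts of calls are given below with and without this library. Libraries held 21134542 to 40111934 UMIs and 3776 to 7704 cells, and any pair of libraries shared 21 to 80 cell barcodes. Barcodes with 10 to 100 UMIs, taken as empty, held JCHAIN at 0.37% to 0.58% of UMIs in PP and whole ileum libraries and at 0.05% to 0.11% in the others.

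One property of the JCHAIN-high cells decides how any level in them is read. JCHAIN and 6 features with no gene symbol took up 64.1% and 65.1% of all UMIs there, 35.5% and 33.3% in JCHAIN-mid cells and 1.15% and 1.35% in JCHAIN-low cells. The remaining genes are pressed into what is left. Shares are therefore given of the UMIs outside these 7 dominant features. Scaled levels below use TMM (trimmed mean of M-values) factors, which aim to set the bulk of genes level between sums. The median log2 difference of all genes still read -0.42 from JCHAIN-low to JCHAIN-high cells and -0.26 from JCHAIN-low to JCHAIN-mid cells. For most comparisons the counts of calls with scaling to total UMIs are given as well.

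The 49 genes together took a larger share of UMIs in cells with a larger JCHAIN share. They made up 0.803% (pig 1) and 0.832% (pig 2) of the UMIs outside the dominant features in JCHAIN-low cells, 5.21% and 4.10% in JCHAIN-mid cells and 6.96% and 7.03% in JCHAIN-high cells. T cells, at 0.841% and 0.879%, were close to JCHAIN-low cells, and epithelial cells lay between at 1.27% and 1.65%. In finer bins the largest step came at a JCHAIN share of 0.5%. Cells from 0.1% to 0.5% held 1.01% and 1.06%, and cells from 0.5% to 1% held 4.01% and 3.35%. The sum then read 5.62% and 4.19% from 2% to 5%, 6.30% and 5.63% from 5% to 10%, 7.04% and 6.86% from 10% to 20%, and 6.84% and 7.35% above 20%. As a share of all UMIs, dominant features included, JCHAIN-high cells read lower than JCHAIN-mid cells (2.50% and 2.45% against 3.36% and 2.73%). The order low, mid, high thus holds outside the dominant features but not over all UMIs.

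**Figure D1:**
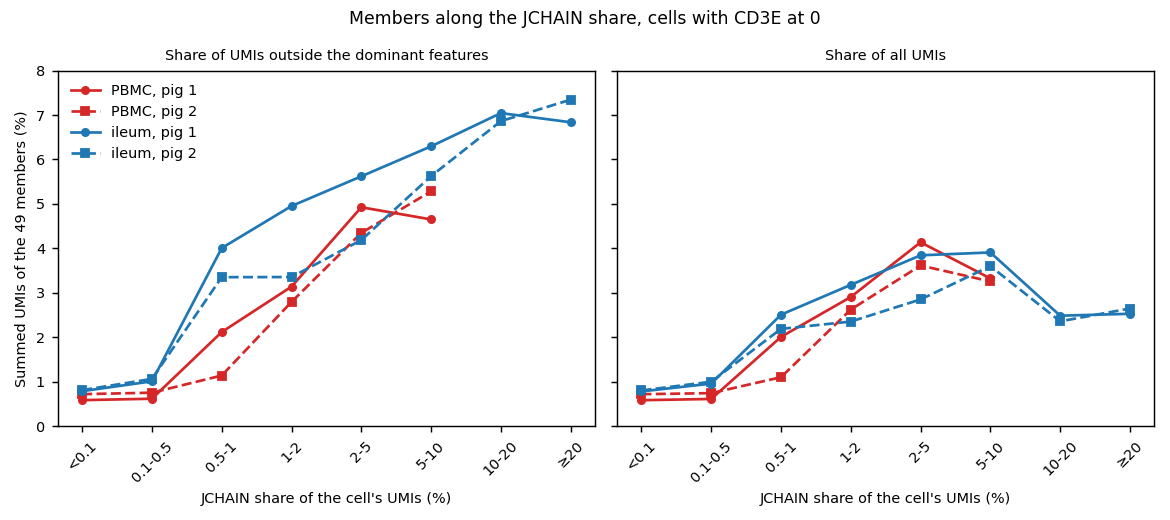
Summed share of the 49 genes (percent of UMIs outside the 7 dominant features) by JCHAIN share of UMIs in cells with CD3E at 0, 1 line per pig and tissue, with points only for ileal bins of at least 10 cells and PBMC bins of at least 5 cells. In the ileum the sum goes from 1.01% and 1.06% below a JCHAIN share of 0.5% to 4.01% and 3.35% just above it and to about 7% in the highest bins.

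Single cells showed the same separation as the sums. The 95th percentile of JCHAIN-low cells in the ileum lay at 1.34%, and 232 of 232 JCHAIN-high cells, 92.7% of JCHAIN-mid cells, 42.4% of epithelial cells and 3.92% of T cells were above it. With every cell thinned to 1000 UMIs outside the dominant features, that percentile lay at 1.5% and the shares were 100%, 91.0%, 35.9% and 3.56%. Left out were 3 JCHAIN-high cells, 1 JCHAIN-low cell and 1 T cell that fell short. Cells of 1 library are not replicates, and these shares are a description. The difference did not rest on MZB1 alone, since the other 48 genes read 0.776% and 0.802% in JCHAIN-low and 6.096% and 6.177% in JCHAIN-high cells. Over the ileal libraries with at least 10 cells of a class, the sum ran from 0.774% to 1.00% in JCHAIN-low cells (6 libraries), from 3.91% to 5.31% in JCHAIN-mid cells (4 libraries) and from 6.73% to 7.20% in JCHAIN-high cells (5 libraries), so the ranges of these classes did not overlap.

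Against JCHAIN-low cells, 46 of the 49 genes were higher in ileal JCHAIN-high cells, none was lower and 3 were not called (edgeR quasi-likelihood test on UMI sums per pig, Benjamini-Hochberg adjusted p under 0.05 over 11700 genes). Across all genes tested, 8.42% were higher and 9.67% lower. The median difference of the 49 was 3.03 on the log2 scale, against -0.42 for all genes. All 49 read higher in both pigs, with per-pig medians of 2.90 and 3.09. Such agreement was not counted over all genes, so it has no background. The 46 calls were the same genes without the library labelled whole ileum pig 1 and without both whole ileum libraries. Scaled to total UMIs, which moves the median of all genes to -1.93, 41 were higher and 2 (SRP72 and SEC11A) lower, and the share of higher genes among all calls went from 46.6% to 4.18%; DESeq2 gave 47 members higher and a share of 62.6%.

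Levels below are CPM after TMM scaling (scaled CPM), pig 1 first, and differences are log2 fold changes ± SE from that test. They compare classes within a gene and not genes with each other, since 3' UMI counts depend on how well each gene is captured.

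Among genes that bring ribosomes to the membrane, the particle and its receptor differed in extent. SRPRA, the docking subunit of the receptor, read 40.3 and 41.2 scaled CPM in JCHAIN-low, 279 and 217 in JCHAIN-mid and 294 and 359 in JCHAIN-high cells, and was higher in high than low cells by 3.01 ± 0.20 (edgeR adjusted p = 2.93e-07). Its partner SRPRB was higher by 2.39 ± 0.27. The particle's own proteins moved less. SRP14 was higher by 1.16 ± 0.16, although this turned to -0.34 with scaling to total UMIs. SRP72 read 23 and 21.5 in JCHAIN-low and 23.3 and 23.2 in JCHAIN-high cells and was not called (0.06 ± 0.28, edgeR adjusted p = 0.904). SRP9 rested on 5 and 3 UMIs in JCHAIN-high cells, at 14.6 and 5.36 scaled CPM against 4.50 and 4.58 in JCHAIN-low cells, and was not called either (1.00 ± 0.54, edgeR adjusted p = 0.255).

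All 9 genes of the translocon were higher in JCHAIN-high cells, by 2.09 to 3.92. SEC61B, a small subunit of the protein channel, read 378 and 378 scaled CPM in JCHAIN-low, 2009.5 and 1762 in JCHAIN-mid and 2595 and 3092 in JCHAIN-high cells (2.91 ± 0.16, edgeR adjusted p = 9.58e-08). Its partners SEC61A1, the pore itself, and SEC61G were higher by 3.38 ± 0.25 and 2.26 ± 0.19. SEC62 and SEC63, which help chains enter after translation, were higher by 2.09 ± 0.26 and 2.12 ± 0.18. The translocon-associated SSR1, SSR2 and SSR3 were higher by 2.98 ± 0.33, 2.76 ± 0.16 and 3.61 ± 0.21. The largest difference of the group was that of SSR4, the remaining translocon-associated subunit, at 314 and 279 scaled CPM in JCHAIN-low, 1826 and 1735 in JCHAIN-mid and 4417 and 4550.2 in JCHAIN-high cells (3.92 ± 0.16, edgeR adjusted p = 1.15e-08).

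The alternative catalytic subunits of signal peptidase, SEC11A and SEC11C, went apart. SEC11C read 73.4 and 79.9 scaled CPM in JCHAIN-low, 1273 and 1004 in JCHAIN-mid and 2428 and 2612 in JCHAIN-high cells (5.04 ± 0.22, edgeR adjusted p = 2.22e-08). SEC11A read 102 and 110.0, then 161 and 189, then 122 and 149.9, and was not called between high and low cells (0.37 ± 0.18, edgeR adjusted p = 0.202). In T cells the same genes read 167 and 159.8 (SEC11A) and 137 and 134 (SEC11C). The other subunits followed SEC11C, with SPCS1 higher by 3.38 ± 0.21, SPCS2 by 3.68 ± 0.18 and SPCS3 by 3.11 ± 0.20. As a group, signal peptidase made up 0.102% and 0.112% of UMIs outside the dominant features in JCHAIN-low cells and 1.19% and 1.19% in JCHAIN-high cells.

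The 5 subunits of oligosaccharyltransferase, the enzyme of N-linked glycosylation, were all higher. RPN1 had the largest difference, from 64.6 and 62.2 scaled CPM in JCHAIN-low to 549.5 and 427 in JCHAIN-mid and 606 and 644 in JCHAIN-high cells (3.30 ± 0.19, edgeR adjusted p = 1.26e-07). OSTC, DDOST and RPN2 were close to it at 3.24 ± 0.20, 3.16 ± 0.20 and 3.08 ± 0.20, and DAD1, a small subunit, was higher by 2.09 ± 0.19.

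Every one of the 12 chaperones and co-chaperones was higher, and their sum went from 0.192% and 0.206% of UMIs outside the dominant features in JCHAIN-low to 2.13% and 2.23% in JCHAIN-high cells. MZB1, a co-chaperone of B lineage cells that assists antibody assembly, read 197 and 224 scaled CPM in JCHAIN-low, 4198 and 3549 in JCHAIN-mid and 6157 and 6937 in JCHAIN-high cells (4.96 ± 0.30, edgeR adjusted p = 1.71e-07). HSPA5, the main chaperone of the compartment, had one of the smaller differences, from 554 and 578 to 2427 and 1923 and then 2548 and 3451 (2.41 ± 0.26, edgeR adjusted p = 2.55e-05). Its co-chaperones were further apart between the classes. DNAJB9 was higher by 4.45 ± 0.26, DNAJC3 by 4.40 ± 0.32, SDF2L1 by 4.43 ± 0.35 and DNAJB11 by 3.80 ± 0.30. HYOU1, which exchanges nucleotide on HSPA5, was higher by 2.82 ± 0.23. Among the others, CRELD2 was higher by 4.84 ± 0.27, HSP90B1 (the Hsp90 of the compartment) by 4.20 ± 0.33 and MANF by 2.81 ± 0.29. The lectin chaperones that hold glycoproteins differed least, CALR by 1.90 ± 0.21 and CANX by 1.38 ± 0.21, and CANX read -0.095 with scaling to total UMIs.

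The protein disulfide isomerase family was higher throughout, by 1.65 to 3.83. PDIA4 read 140.2 and 156 scaled CPM in JCHAIN-low, 1307 and 1106 in JCHAIN-mid and 1936 and 2285 in JCHAIN-high cells (3.83 ± 0.23, edgeR adjusted p = 1.6e-07). P4HB, ERP29, PDIA6 and PDIA3 were higher by 2.56 ± 0.30, 2.43 ± 0.28, 2.12 ± 0.18 and 1.65 ± 0.17. PDIA6 was already at 320.3 and 335 in JCHAIN-low cells, against 151 and 157 in T cells.

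Of the traffic genes, the cargo receptor LMAN1 had the largest difference, from 32.2 and 32 scaled CPM to 637 and 488 and then 708 and 857 (4.61 ± 0.21, edgeR adjusted p = 3.01e-08). KDELR1 and KDELR2, which bring escaped chaperones back from the Golgi apparatus, were higher by 3.03 ± 0.18 and 2.90 ± 0.23.

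Genes of degradation and stress sensing completed the set, all 5 higher. ERN1 (IRE1), the sensor that splices XBP1 RNA, had the largest fold but the fewest reads. It gave 25 and 35 UMIs in JCHAIN-low, 8 and 16 in JCHAIN-mid and 7 and 22 in JCHAIN-high cells, that is 0.66 and 0.69, 12.9 and 21.5, and 20.4 and 39.3 scaled CPM (5.49 ± 0.60, edgeR adjusted p = 3.09e-05). The gene ID that the matrices call ERN1 is not the one the gene name table calls ERN1, so this identity is uncertain. HERPUD1, SEL1L and SELENOS, parts of the degradation machinery, were higher by 3.23 ± 0.25, 3.03 ± 0.28 and 3.36 ± 0.26. ATF4, a transcription factor of the stress response, was higher by 1.53 ± 0.19, from 526.2 and 526.9 to 1396 and 1633.

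**Figure D2:**
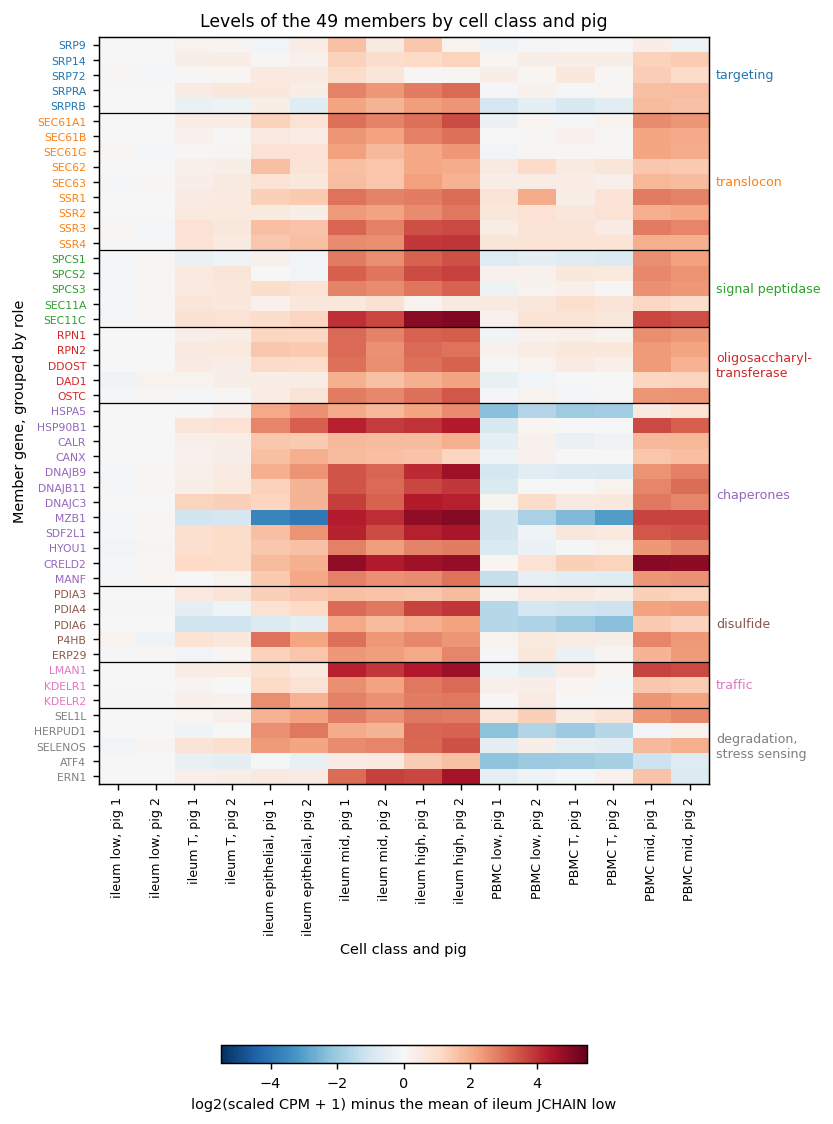
Level of each of the 49 genes (rows, by role) in each ileal and PBMC class and pig (columns), as log2(scaled CPM + 1) minus the mean of the ileal JCHAIN-low sums, with colours capped at both ends of the scale. The JCHAIN-mid and JCHAIN-high columns are raised for nearly all rows, with SEC11A, SRP9 and SRP72 paler, and MZB1 is the row that is lowest in epithelial cells.

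Most of the difference was already present in JCHAIN-mid cells. Against JCHAIN-low cells, 47 of the 49 genes were higher in JCHAIN-mid cells, none lower and 2 not called, with a median of 2.66 against -0.26 for all genes. Of all genes, 6.04% were higher and 4.39% lower. The genes not called were SRP9 (1.29 ± 0.45, edgeR adjusted p = 0.0935) and ATF4 (0.49 ± 0.18, edgeR adjusted p = 0.119; -0.13 with total UMIs), which read 715 and 761 scaled CPM here. SEC11A and SRP72, not called in JCHAIN-high cells, were higher in JCHAIN-mid cells by 0.73 ± 0.18 (edgeR adjusted p = 0.0178) and 0.86 ± 0.23 (edgeR adjusted p = 0.0308). The largest difference of each role group fell to SRPRA (2.60 ± 0.19), SSR3 (3.01 ± 0.20), SEC11C (3.89 ± 0.21), RPN1 (2.94 ± 0.19), CRELD2 (4.73 ± 0.27), PDIA4 (3.03 ± 0.22), LMAN1 (4.13 ± 0.21) and ERN1 (4.66 ± 0.60). CRELD2, a folding factor, read 15.5 and 16.8 in JCHAIN-low and 509 and 346 in JCHAIN-mid cells, and SSR3 read 87.6 and 76.9 and then 762 and 561. SEC61B, HSPA5 and MZB1 were higher by 2.32 ± 0.16, 1.94 ± 0.25 and 4.20 ± 0.29. Without the library labelled whole ileum pig 1, 46 genes were called, and without both whole ileum libraries 45. With scaling to total UMIs 45 were higher, none lower, and the share of higher genes among all calls fell from 57.9% to 12.2%.

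Between JCHAIN-mid and JCHAIN-high cells, 4 genes were called higher, with none lower with TMM scaling, while with scaling to total UMIs none was higher and 14 were lower. Of all genes, 0.137% were higher and 0.12% lower. SSR4 was higher in JCHAIN-high cells by 1.33 ± 0.15 (edgeR adjusted p = 0.00168), HERPUD1 by 1.27 ± 0.23 (edgeR adjusted p = 0.0424), SEC11C by 1.15 ± 0.19 (edgeR adjusted p = 0.0296) and ATF4 by 1.04 ± 0.18 (edgeR adjusted p = 0.0382). HERPUD1 read 706 and 639 scaled CPM in JCHAIN-mid against 1600.5 and 1635 in JCHAIN-high cells. The other 45 genes were not called, from SRP72 (-0.80 ± 0.31) to DNAJB9 (1.08 ± 0.23), with SEC61B at 0.59 ± 0.15, HSPA5 at 0.46 ± 0.25, MZB1 at 0.76 ± 0.26 and ERN1 at 0.83 ± 0.58. With total UMIs 39 of the 49 differences turned sign, and these genes read -0.29 (SEC61B), -0.43 (HSPA5), -0.13 (MZB1) and -0.084 (ERN1). The median was 0.44, and 32 genes read higher and 4 lower in both pigs. Agreement of the pigs was not counted over all genes, so these counts have no background. The pigs differed here, with medians of 0.09 and 0.64. Taking only UMIs outside the dominant features left 3 calls, all higher, and a median of 0.44, whereas total UMIs gave a median of -0.45 while that of all genes was -0.89. The share of higher genes among all calls was 53.3% with TMM, 70.9% in DESeq2, which called 17 members higher, and 0.401% with total UMIs. Leaving out the library labelled whole ileum pig 1 left 1 call.

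**Figure D3:**
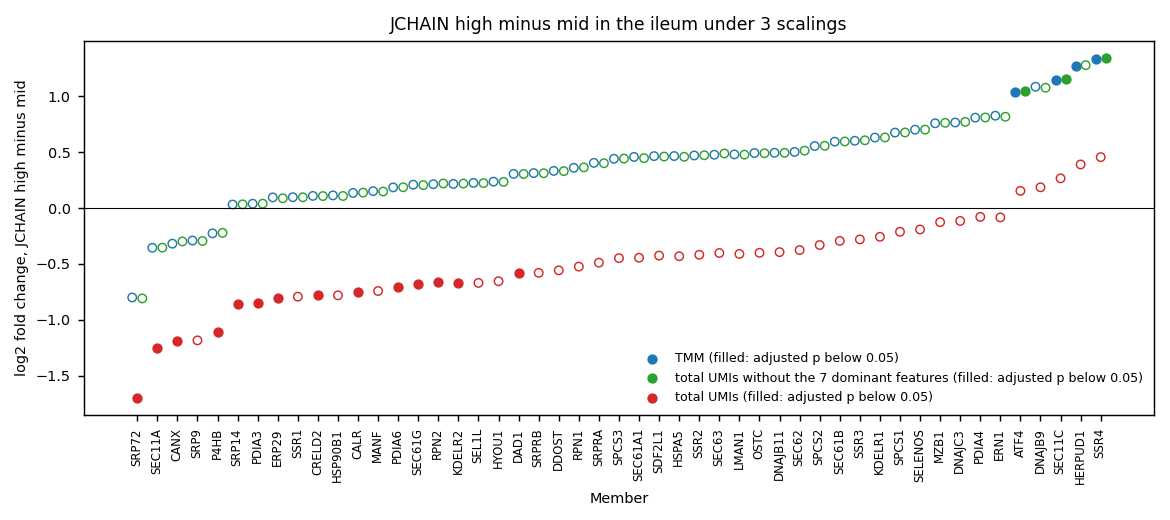
Log2 difference of each of the 49 genes between JCHAIN-high and JCHAIN-mid cells of the ileum under 3 scalings: TMM, UMIs outside the 7 dominant features, and total UMIs. Filled points passed an adjusted p of 0.05; the median goes from 0.44 under the first scaling to -0.45 under total UMIs, where 14 genes were called lower.

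In each pig, the ileal class with the highest scaled CPM (TMM) was found for each gene among the 5 classes. JCHAIN-high cells held it in both pigs for 32 genes, and JCHAIN-mid cells in both pigs for SRP9 and SRP72. The pigs differed for 15 genes. For 13 of these, among them HSP90B1, CALR, PDIA6, P4HB and CRELD2, the top class was JCHAIN-mid in pig 1 and JCHAIN-high in pig 2. CANX was highest in JCHAIN-mid cells of pig 1 and in epithelial cells of pig 2, and SEC11A in T cells of pig 1 and JCHAIN-mid cells of pig 2. With total UMIs 39 of the 49 differences between JCHAIN-high and JCHAIN-mid cells turned sign, so the top class depends on the scaling. The top class was not counted over all genes, so these counts have no background.

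Epithelial cells held many of the 49 genes above JCHAIN-low cells. Against JCHAIN-low cells, 38 genes were higher, 2 lower and 9 not called, with a median of 1.10 against 0.10 for all genes. This class differs widely from JCHAIN-low cells, since 31.9% of all genes were higher and 21.6% lower. HSP90B1 read 91.8 and 97 scaled CPM in JCHAIN-low and 615 and 928 in epithelial cells (3.03 ± 0.31, edgeR adjusted p = 5.37e-06). HERPUD1 read 990.3 and 1309 in epithelial cells (2.74 ± 0.24, edgeR adjusted p = 1.6e-06), P4HB 209.7 and 119 (2.67 ± 0.29, edgeR adjusted p = 7.56e-06) and HSPA5 2437 and 3234 (2.33 ± 0.26, edgeR adjusted p = 9.71e-06). By role, 11 of 12 chaperones, 9 of 9 translocon genes and 3 of 5 genes of degradation and stress sensing were higher. The largest differences of the other role groups were KDELR2 (2.29 ± 0.22), SSR3 (1.63 ± 0.19), RPN2 (1.49 ± 0.19), SEC11C (1.10 ± 0.19) and SRP72 (0.53 ± 0.21), and SEC61B was higher by 0.49 ± 0.15. MZB1 was lower, at 16.1 and 12.7 in epithelial cells (-3.86 ± 0.31, edgeR adjusted p = 8.56e-07), and so was PDIA6, at 194 and 233 (-0.62 ± 0.18, edgeR adjusted p = 0.0103).

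The 9 genes not called between epithelial and JCHAIN-low cells ran from ATF4 (-0.24 ± 0.18) to ERN1 (0.95 ± 0.79, on 3 and 2 UMIs). They were ATF4, SPCS2, SRPRB, SPCS1, SRP9, SRP14, DAD1, SEC11A and ERN1. SPCS1 read 442 and 320.4 and SPCS2 98.2 and 87.9 in epithelial cells, within or near their ranges of 346 to 376 and 92.7 to 102 in JCHAIN-low cells. SRP14 read 136 and 154, SRPRB 32.1 and 15.3, DAD1 233 and 239, and SEC11A 124 and 159. Without the library labelled whole ileum pig 1, 35 genes were higher and 2 lower. With total UMIs 30 were higher and 4 lower, and the share of higher genes among all calls went from 59.6% to 44.8%.

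JCHAIN-high cells exceeded epithelial cells in 40 genes, with none lower and 9 not called, at a median of 1.98 against -0.37 for all genes. Of all genes, 12.2% were higher and 21.7% lower. The largest differences were those of MZB1, ERN1, SEC11C and LMAN1. MZB1 was higher by 8.82 ± 0.37 (edgeR adjusted p = 7.72e-09) and ERN1 by 4.54 ± 0.71 (edgeR adjusted p = 0.000343). SEC11C, at 152 and 177 scaled CPM in epithelial cells, was higher by 3.94 ± 0.21 (edgeR adjusted p = 4.98e-08), and LMAN1, at 58 and 47.8, by 3.88 ± 0.21 (edgeR adjusted p = 4.98e-08). PDIA4, OSTC, SRPRA and SEC61B were higher by 2.88 ± 0.22, 2.66 ± 0.19, 2.51 ± 0.20 and 2.42 ± 0.16. By sums, signal peptidase made up 0.106% and 0.112% of UMIs in epithelial cells, against 1.19% in JCHAIN-high cells of either pig.

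Several genes of general folding, and HERPUD1 of the degradation machinery, were not called between JCHAIN-high and epithelial cells. Most of both folding groups were called higher in JCHAIN-high cells, at 9 of 12 chaperones and 3 of 5 disulfide isomerases. HSPA5 read 2548 and 3451 in JCHAIN-high and 2437 and 3234 in epithelial cells (0.08 ± 0.24, edgeR adjusted p = 0.852). With total UMIs this became -1.065 and was called lower. PDIA3, CALR, HERPUD1, CANX and P4HB were not called either, at 0.24 ± 0.17, 0.44 ± 0.21, 0.49 ± 0.23, -0.46 ± 0.20 and -0.11 ± 0.29. The same held for SRP72 (-0.47 ± 0.29), SEC11A (-0.05 ± 0.19) and SRP9 (0.84 ± 0.59). With 2 pigs, differences of the size of these standard errors could not be resolved. Without the library labelled whole ileum pig 1, 37 genes were higher and none lower. With total UMIs 27 were higher and 9 lower, 12 of the 49 differences turned sign (among the genes called higher with TMM, SRP14, SELENOS, MANF, SEC62, ERP29, KDELR2 and SEL1L), and the share of higher genes among all calls went from 36.0% to 9.62%. That share was 51.8% with UMIs outside the dominant features, which left 43 members higher and none lower.

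**Figure D4:**
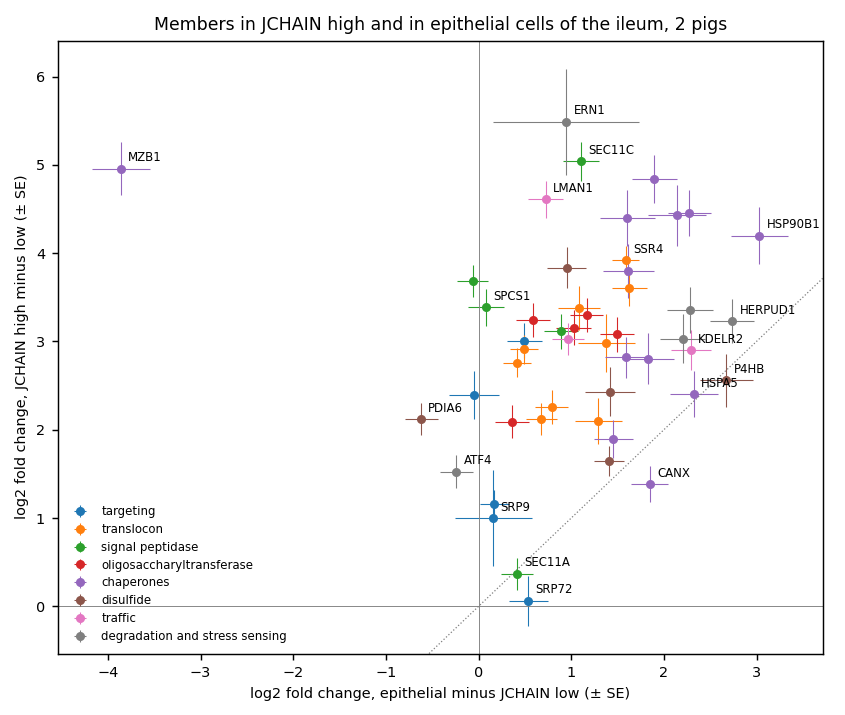
Log2 difference from JCHAIN-low cells in epithelial cells (horizontal axis) and in JCHAIN-high cells (vertical axis) of the ileum, 1 point per gene, coloured by role, with bars of 1 SE and a dotted line of equality; both axes share the JCHAIN-low sums. HSPA5 lies at 2.33 and 2.41, near that line, while MZB1 (-3.86 and 4.96) and SEC11C (1.10 and 5.04) lie far above it.

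T cells differed little from JCHAIN-low cells. Of the 49 genes, 12 were higher, 2 lower and 35 not called, with 9.02% of all genes higher and 6.41% lower. The median was 0.38 against 0.07 for all genes. DNAJC3, which inhibits the stress kinase PERK and assists HSPA5, read 15.4 and 15.9 in JCHAIN-low and 38.1 and 41 scaled CPM in T cells (1.33 ± 0.28, edgeR adjusted p = 0.00592). CRELD2 was higher by 1.10 ± 0.23, SDF2L1 by 0.99 ± 0.30, HYOU1 by 0.96 ± 0.21, SEC11C by 0.82 ± 0.19 and SELENOS by 0.80 ± 0.23. The difference of SELENOS read -0.031 when sums were made per library. SSR3 (0.72 ± 0.19), PDIA3 (0.64 ± 0.16), SSR4 (0.62 ± 0.14), SPCS2 (0.62 ± 0.16), SEC11A (0.62 ± 0.17) and SSR2 (0.54 ± 0.15) made up the rest. PDIA6, at 151 and 157, was lower by -1.09 ± 0.18 (edgeR adjusted p = 0.00141) and MZB1, at 100.4 and 110.1, by -1.0 ± 0.26 (edgeR adjusted p = 0.0201). SEC61B, HSPA5 and ERN1 were not called, at 0.15 ± 0.15, 0.16 ± 0.24 and 0.69 ± 0.50. The count is fragile, with 7 higher and 2 lower without the library labelled whole ileum pig 1, and 2 higher and 1 lower with sums per library. With total UMIs it was 6 higher and 3 lower, and the share of higher genes among all calls went from 58.4% to 47.9%.

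MZB1 in T cells took the same order of dissections as in empty barcodes, but stood lower than these in PP libraries. Empty barcodes held MZB1 at 292 and 330.02 CPM in the PP libraries and at 23.4 and 43.3 in the non-PP libraries, and T cells of these libraries held it at 166 and 118 and at 18.4 and 42.3 scaled CPM. The T class of PP libraries also held 20 and 11 cells with a JCHAIN share of at least 10%, that of non-PP libraries 1 and 1. The source of the MZB1 level in T cells was not tested. That level is read neither as expression of T cells nor as ambient RNA.

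In blood, 45 of the 49 genes were higher in JCHAIN-mid than in JCHAIN-low cells and none was lower, with a median of 2.11 against -0.27 for all genes, of which 8.09% were higher and 10.5% lower. MZB1 went from 105 and 59.9 to 2769 and 2745 scaled CPM (5.06 ± 0.31, edgeR adjusted p = 6.47e-07), LMAN1 from 27.4 and 22.6 to 429 and 415 (4.08 ± 0.21, edgeR adjusted p = 2.3e-07) and HSPA5 from 113 and 187 to 796 and 990.2 (2.57 ± 0.26, edgeR adjusted p = 2.68e-05). These genes were picked from the called ones, so the gap between their classes in both pigs adds no support. The largest differences of the other role groups were PDIA4 (3.52 ± 0.23), SEC11C (3.09 ± 0.21), SEC61A1 (2.64 ± 0.24), SRPRB (2.46 ± 0.28), RPN1 (2.43 ± 0.19) and HERPUD1 (1.99 ± 0.24), and SEC61B was higher by 2.10 ± 0.16. SEC11A (0.52 ± 0.18) and SEC62 (0.69 ± 0.25, from 120.4 and 176 to 242 and 235) were not called, and neither was SRP9, on 3 and 2 UMIs (0.23 ± 0.62). ERN1 gave 2 UMIs in pig 1 and 0 UMIs in pig 2 among JCHAIN-mid cells of blood, where a count of 0 of 503805 UMIs allows up to 5.95 CPM, so no fold is given for it. As a share of UMIs outside the dominant features, the 49 genes read 0.584% and 0.718% in JCHAIN-low and 3.30% and 3.27% in JCHAIN-mid cells, and 82.9% of the JCHAIN-mid cells lay above the 95th percentile of JCHAIN-low cells of blood. With total UMIs the count stayed at 45 higher and none lower, and the share of higher genes among all calls went from 43.5% to 32.6%.

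Ileum and blood also differed within a class, though they were prepared differently, from dissociated tissue and from blood, and tissue and preparation cannot be told apart. In JCHAIN-low cells 11 genes were higher in the ileum, 8 lower and 30 not called, against 19.6% higher and 16.7% lower of all genes. The members' counts were thus near the shares of all genes. Of the higher genes 5 were chaperones, 2 disulfide isomerases and 2 genes of degradation and stress sensing, beside SRPRB and SPCS1. The myeloid sum of this class was larger in blood, as given above. Germinal center markers summed to 488 and 582 CPM in the ileum against 8.98 and 16.9 in blood, outside the dominant features. Cycling markers summed to 2355 and 2799 against 575 and 458. These sums were not taken among cells with a B lineage UMI, and the part of this makeup in the result was not tested. With JCHAIN-low cells limited to those with a B lineage UMI, which kept 1635 and 1321 such cells of blood, 10 genes were higher and 3 (SSR2, SSR4 and SEL1L) lower, and the median went from -0.04 to 0.13. Of all genes, 3573 were called in that setting, 50.2% of them higher, and their median was 0.016 over all genes tested. HSPA5, HERPUD1 and ATF4 were then higher by 2.14, 2.34 and 2.23. ATF4 read 526.2 and 526.9 in the ileum against 111 and 130.3 scaled CPM in blood (2.12 ± 0.19, edgeR adjusted p = 7.49e-06), HERPUD1 177 and 168 against 35.4 and 53.9 (1.95 ± 0.23, edgeR adjusted p = 5.92e-05) and HSPA5 554 and 578 against 113 and 187 (1.91 ± 0.25, edgeR adjusted p = 0.000112). PDIA6 was higher by 1.64 ± 0.18, MZB1 by 1.35 ± 0.26, PDIA4 by 1.26 ± 0.21, MANF and DNAJB9 by 0.81 ± 0.27 and 0.81 ± 0.23, SRPRB by 0.75 ± 0.24, SPCS1 by 0.61 ± 0.19 and HYOU1 by 0.58 ± 0.21. Among cells with a B lineage UMI, MZB1 (0.51) and HYOU1 (0.52) were not called, while DNAJB11 was (0.70). With ambient RNA subtracted, MZB1 (1.31), HYOU1 (0.52), DNAJB9 (0.65), MANF (0.71), SRPRB (0.72) and SPCS1 (0.54) were not called. Of the 8 lower genes 5 were translocon genes. SSR1, the largest, read 74.4 and 71.5 in the ileum against 125 and 303 in blood (-1.55 ± 0.31, edgeR adjusted p = 0.00181), with the blood samples far apart, and was not called among cells with a B lineage UMI (-0.48). SEL1L was lower by -1.13 ± 0.22, SEC62 by -0.80 ± 0.24, SSR4 by -0.72 ± 0.14, SSR2 by -0.71 ± 0.15, SSR3 by -0.56 ± 0.19, SEC11A by -0.55 ± 0.17 and SEC11C by -0.52 ± 0.19. SEC61B (-0.04 ± 0.15) and ERN1 (1.26 ± 0.61) were not called. Without the library labelled whole ileum pig 1, 7 were higher and 5 lower, and with ambient RNA subtracted 5 were higher and 10 lower, so the balance of the directions is not fixed.

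Some of the 49 genes were also called between ileal and blood T cells. In the ileum 9 genes were higher than in blood, none lower and 40 not called, against 12.6% higher and 5.09% lower of all genes. The count of higher genes was thus not far from the share of all genes. Without the library labelled whole ileum pig 1, 8 were higher. HSPA5 read 584 and 680.3 against 146 and 148 scaled CPM (2.10 ± 0.25, edgeR adjusted p = 0.000122), HERPUD1 150.1 and 174 against 42.7 and 57.7 (1.69 ± 0.23, edgeR adjusted p = 0.000297) and ATF4 395 and 378 against 135 and 148 (1.45 ± 0.18, edgeR adjusted p = 0.000174). The tissues did not overlap in these genes, which adds no support, since they were picked from the called genes. SELENOS was higher by 1.28 ± 0.24, DNAJB9 by 1.17 ± 0.23, PDIA6 by 1.06 ± 0.18, HYOU1 by 0.89 ± 0.21, PDIA4 by 0.77 ± 0.21 and MZB1, whose level is not read as expression of T cells, by 1.75 ± 0.27. Entry genes were not called, SEC61B for instance at -0.00 ± 0.15, and ERN1 read 0.48 ± 0.53. In empty barcodes HSPA5 stood at 674 to 995 CPM in the ileal libraries and at 136 and 174 in blood, HERPUD1 at 170 to 268 against 41.3 and 60.1, and ATF4 at 467 to 714 against 203 and 225. Empty barcodes thus held the same order of tissues, and the ileal levels of these genes in T cells and JCHAIN-low cells lay within or below the ranges of ileal empty barcodes. Levels in empty barcodes are plain CPM without TMM scaling, so the scales differ. Empty barcodes hold RNA from the cells of their own library, so this order cannot tell expression from ambient RNA. These differences between tissues are therefore read as neither, and their source was not tested. Ambient RNA was subtracted at an assumed 10% of UMIs, not estimated from the data, so how much of it remained is unknown. With this subtraction, 8 genes were higher in T cells. In JCHAIN-low cells, where 5 genes were then higher and 10 lower, ATF4, HERPUD1 and HSPA5 were higher by 2.148, 1.885 and 1.814.

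JCHAIN-mid cells were compared between tissues as a comparison added after the cell numbers were seen. In the ileum 6 genes were higher and none lower, against 2.01% higher and 0.846% lower of all genes. HERPUD1 read 706 and 639 against 157 and 198 scaled CPM in blood (1.92 ± 0.24, edgeR adjusted p = 0.000895), ATF4 715 and 761 against 239.8 and 324 (1.39 ± 0.19, edgeR adjusted p = 0.00137) and HSPA5 2427 and 1923 against 796 and 990.2 (1.28 ± 0.25, edgeR adjusted p = 0.0145). These 3 genes were higher in the ileum in each of the classes compared. In JCHAIN-mid cells the scaled levels of HSPA5 and HERPUD1 stood above the range of ileal empty barcodes in plain CPM. The scaled levels of ATF4 lay just above that range, but scaled levels read higher than plain CPM in this class (TMM factors of 0.866 and 0.848). KDELR1 was higher by 0.95 ± 0.18, SRPRA by 0.91 ± 0.20 and SSR4 by 0.60 ± 0.15, while SEC61B (0.18 ± 0.15), MZB1 (0.49 ± 0.26) and ERN1 (3.17 ± 0.90, edgeR adjusted p = 0.0853, on 0 UMIs in 1 blood sample) were not called. Without the library labelled whole ileum pig 1, 5 were called. With total UMIs 2 were higher and none lower, and the share of higher genes among all calls went from 70.4% to 26.8%.

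**Figure D5:**
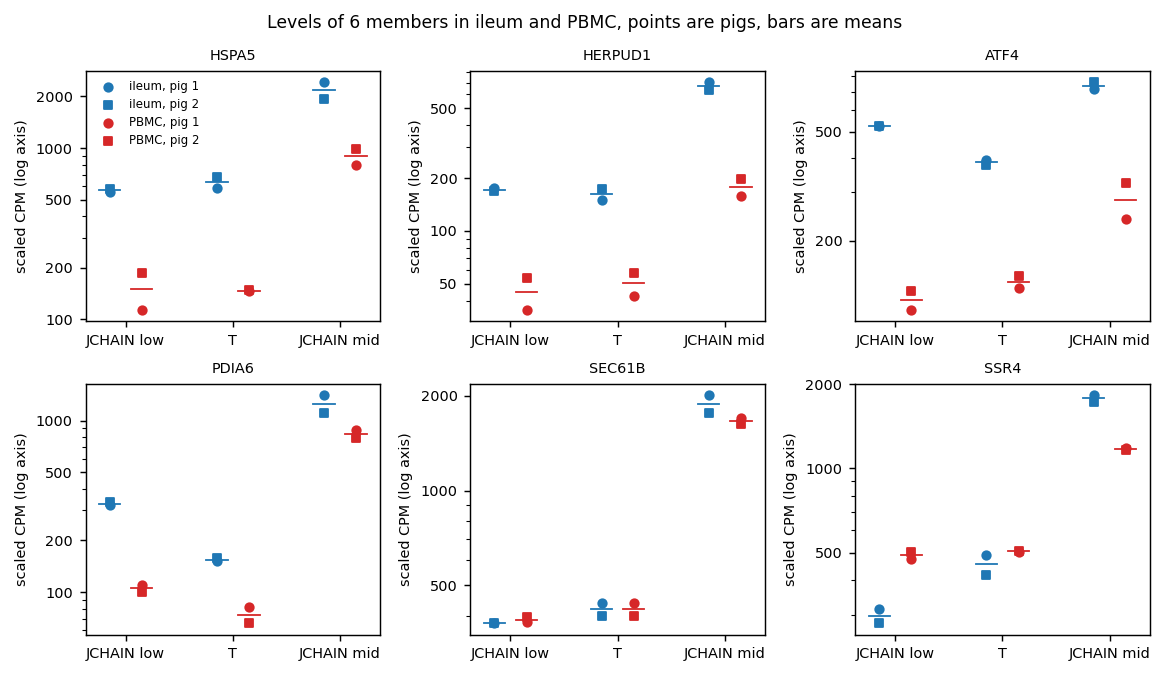
Scaled CPM (log axis) of HSPA5, HERPUD1, ATF4, PDIA6, SEC61B and SSR4 in JCHAIN-low, T and JCHAIN-mid cells of the ileum and of PBMC, 1 point per pig. HSPA5, HERPUD1 and ATF4 are higher in the ileum in all 3 classes, as in JCHAIN-low cells with HSPA5 at 554 and 578 against 113 and 187, whereas SEC61B lies at like levels in the JCHAIN-low class (378 and 378 against 381 and 396).

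The step from JCHAIN-low to JCHAIN-mid itself differed between tissues for 4 genes, also a comparison added after the cell numbers were seen. SSR4 rose more in the ileum than in blood, by 1.32 ± 0.21 (edgeR adjusted p = 0.00391), as did KDELR1, by 1.28 ± 0.25 (edgeR adjusted p = 0.0111), and SSR2, by 0.92 ± 0.21 (edgeR adjusted p = 0.027). PDIA6 rose less, by -1.06 ± 0.25 (edgeR adjusted p = 0.029), its level being 320.3 and 335 in ileal but 110.4 and 99.6 scaled CPM in blood JCHAIN-low cells. Of all genes 2.56% were called positive and 2.62% negative. The other 45 members were not called, with HSPA5 at -0.63 ± 0.35, MZB1 at -0.86 ± 0.37, SEC61B at 0.22 ± 0.21 and ERN1 at 1.90 ± 1.19, a fit that uses a sum with 0 UMIs. With the pig as a replicate block 8 genes were called, 7 positive and 1 negative, and without the library labelled whole ileum pig 1 there were 2. Among cells with a B lineage UMI, SSR4, KDELR1 and SSR2 were called (1.41, 0.97 and 0.94) and PDIA6 was not (-0.68, edgeR adjusted p = 0.175). With total UMIs 2 were positive and 3 negative, and the share of positive genes among all calls went from 49.5% to 17.7%. At a JCHAIN edge of 2% in place of 0.5%, edgeR called 0 members.

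Peyer's patches could be compared with the rest of the ileum only in JCHAIN-low and T cells, since non-PP libraries held 3 and 6 JCHAIN-mid and 2 and 11 JCHAIN-high cells. In JCHAIN-low cells 3 genes were higher in PP, 26 lower and 20 not called, at a median of -0.58 against -0.18 for all genes (9547 tested, 11.9% higher and 20.9% lower). The class was made of different cells in the dissections. B cell markers summed to 2228 and 2213 CPM in PP but 195 and 185 in non-PP libraries, myeloid markers to 891 and 777 against 3586 and 2054, and T cell markers to 114 and 189 against 1378 and 3174, among cells that had no CD3E UMI. The part of this makeup in the result was not tested.

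The genes higher in PP were a B lineage co-chaperone, a disulfide isomerase and a stress factor. MZB1 read 217.5 and 246.4 scaled CPM in PP and 64.1 and 17.4 in non-PP libraries (2.56 ± 0.54, edgeR adjusted p = 0.00123), PDIA6 329 and 368 against 134 and 138 (1.36 ± 0.19, edgeR adjusted p = 3.24e-05) and ATF4 586 and 558 against 410.3 and 344 (0.60 ± 0.21, edgeR adjusted p = 0.0301). The lower genes were led by SELENOS, at 38.4 and 44.8 against 185 and 255 (-2.41 ± 0.26, edgeR adjusted p = 4.1e-06), and DNAJC3, at 11.2 and 13.03 against 43.5 and 55.4 (-2.04 ± 0.33, edgeR adjusted p = 0.000119). For these genes PP and non-PP libraries did not overlap, which adds no support, since they were picked from the called genes. HSPA5, at 533 and 503 against 945 and 1045, was lower by -0.94 ± 0.25 (edgeR adjusted p = 0.00632). Of the chaperones 10 of 12 were lower, and the largest differences of the other role groups were P4HB (-1.44 ± 0.33), SEC11C (-1.04 ± 0.20), SEC62 (-0.92 ± 0.29), SRPRA (-0.69 ± 0.20), LMAN1 (-0.69 ± 0.25) and RPN2 (-0.61 ± 0.21). SEC61B (0.03 ± 0.18) and ERN1 (-0.72 ± 0.95) were not called.

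In T cells fewer members were called between the dissections. This class also differed in makeup, with B cell markers at 662 and 594 CPM in PP but 15.5 and 15.5 in non-PP libraries. The part of this makeup in the result was not tested. MZB1 was higher in PP by 2.23 ± 0.52 (edgeR adjusted p = 0.0163), in parallel with its level in empty barcodes, and PDIA6, at 198 and 175 scaled CPM against 91.1 and 107, by 0.91 ± 0.19 (edgeR adjusted p = 0.0064). SELENOS was lower, at 76.9 and 70.3 against 133 and 154 (-0.96 ± 0.25, edgeR adjusted p = 0.0322). With doublets removed, and likewise without the filter, 2 members were higher and none was lower. These 2 higher genes and 1 lower gene stood against 2.8% and 1.01% of all genes, and the share of higher genes among all calls was 73.6% in edgeR and 54.9% in DESeq2. The other 46 were not called, among them HSPA5 (-0.35 ± 0.24), SEC61B (0.08 ± 0.18) and ERN1 (-0.10 ± 0.78). In empty barcodes PDIA6 read 263 and 301 CPM in PP and 86.2 and 120 in non-PP libraries, and SELENOS 141 and 106 against 188 and 260.2, the same order as in the cells.

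Other genes of the pathway, 71 listed by role and 67 found, were counted in the same comparisons. Of the 66 that were tested, 51 were higher in JCHAIN-high than in JCHAIN-low cells, 1 was lower and 14 were not called, and in JCHAIN-mid cells 52 were higher and none lower. TXNDC5 and FKBP11, a disulfide isomerase and a prolyl isomerase of the compartment, were higher in JCHAIN-high cells by 6.20 and 5.18. PDIA5, SIL1 and CREB3L2, in turn an isomerase, an exchange factor for HSPA5 and a transcription factor of secretion, were higher by 4.76, 4.29 and 3.99. XBP1, the factor that ERN1 activates, was higher by 4.01 ± 0.26, and CNPY3, a chaperone of Toll-like receptors, was the gene that was lower (-0.90). Between JCHAIN-mid and JCHAIN-high cells edgeR called 0 of the 66. In epithelial against JCHAIN-low cells 43 were higher and 5 lower, where 31.9% of all genes were higher and 21.6% lower. In JCHAIN-high against epithelial cells 38 were higher and 2 lower, beside 12.2% and 21.7% of all genes. From JCHAIN-low to JCHAIN-mid cells of blood 51 were higher and 1 lower, beside 8.09% and 10.5%. The shares of all genes for the other comparisons are given above.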

How the data were processed

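The authors aligned reads of 10x Genomics v2 libraries with Cell Ranger (4.0.6 in the submitters' processing notes, while the study's methods give another version) to an Ensembl pig genome whose annotation they had modified, and deposited raw UMI counts per gene for 737280 barcodes of each library; the 4 sequencing runs of a library stand in 1 matrix. The study's methods name the build as Sscrofa11.1. From these deposited counts, cells with at least 1250 UMIs, at least 550 genes and at most 12.5% mitochondrial UMIs were kept. Doublets were left in and removed as an alternative (Scrublet in scanpy 1.11.5, score above 0.25, 131 to 290 cells per library). UMIs were summed per pig, tissue and class with at least 10 cells and tested with edgeR 4.0.16 (filterByExpr, TMM, quasi-likelihood F test, Benjamini-Hochberg over all genes, adjusted p under 0.05), with 1 fit for all sums. PP and non-PP were compared in a fit of sums per library. DESeq2 1.42.0 was an alternative, and the others are named under the dependence on processing. Subtraction of ambient RNA took an assumed 10% of the UMIs of each library and class, in the proportions of its empty barcodes. p-values and SEs rest on 2 pigs and take in the dispersion estimated over the sums, while floors cover counting error only.

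By the labels, the same number marks the same pig. The library labelled whole ileum pig 1 stood apart from its label, with Y-linked UMIs unlike the other libraries of pig 1. Deviations of same-pig sums from their class means correlated at 0.0039 to 0.590 (median 0.0739) over 28 pairs of classes. The members and lists were chosen with earlier results of these data known. In each comparison, levels per pig are given for the called gene with the largest difference in each role group, for genes that were not called or went the other way from their role group, and for HSPA5, MZB1, SEC61B and ERN1; some are given as differences only. The genes named from the other pathway list were chosen after their values were seen. No column of values was left unused (0). Comparisons of JCHAIN-high cells with or within blood, and of PP with non-PP in JCHAIN-mid and JCHAIN-high cells, had under 10 cells in a sum and were not run. No sequences are given.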

Additional observations from a re-analysis of the deposited data

Results flagged for a closer look

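The rise from JCHAIN-low to JCHAIN-mid cells differed between ileum and blood by an interaction test for 4 of the 49 genes (edgeR on sums per pig, 2 pigs). Of these, 3 were positive and 1 (PDIA6) negative, while 2.56% of all genes were called positive and 2.62% negative. The 1 negative call was thus near the share of all genes. On the log2 scale the ileal rise exceeded that in blood by 1.32 for SSR4, by 1.28 for KDELR1 and by 0.92 for SSR2, and the difference was -1.06 for PDIA6. For SSR4 the JCHAIN-low level was 314 and 279 scaled CPM in the ileum and 475 and 501 in blood, and the JCHAIN-mid level was 1826 and 1735 against 1183 and 1159.5, so the tissues changed order. For KDELR1 the values were 69.2 and 68.1 against 82.9 and 89.4, and 404 and 321 against 193 and 182. PDIA6 differed mainly at the start, at 320.3 and 335 against 110.4 and 99.6, and read 1402 and 1109.5 against 883 and 795 in JCHAIN-mid cells. JCHAIN-low cells of blood held more myeloid marker UMIs than those of the ileum (3470 and 3554 against 1031 and 843 CPM outside the dominant features). They held fewer of germinal center markers (8.98 and 16.9 against 488 and 582) and of cycling markers (575 and 458 against 2355 and 2799). With JCHAIN classes limited to cells with a B lineage UMI, SSR4 (1.41), KDELR1 (0.97) and SSR2 (0.94) were still called and PDIA6 was not (-0.68, edgeR adjusted p = 0.175). PDIA6 was not called with sums per library (-0.85), with ambient RNA subtracted (-0.99) or without the library labelled whole ileum pig 1 (-1.02) either, and neither was SSR2 with total UMIs (0.44), with sums per library (0.70) or without that library (0.92). With the lower JCHAIN edge moved to 2%, edgeR called 0 of the 49 genes, so the 4 calls depend on where that edge is set.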

How the results depend on the processing

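Depth limited ERN1 and SRP9, which had under 25 UMIs per pig in JCHAIN-mid and JCHAIN-high cells, and 2 pigs limited every test. Counts of called members are given against the value in the report. High minus mid (4): 17 in DESeq2, 7 without the filter, 8 with sums per library, 1 without the library labelled whole ileum pig 1, 1 without both whole ileum libraries, and 14, all lower, with total UMIs. T minus low (14): 22 in DESeq2, 9 with total UMIs, 8 with UMIs outside the dominant features (a scaling chosen after seeing the data), 3 with sums per library, 9 and 7 without the library labelled whole ileum pig 1 and without both, and 8 at a JCHAIN edge of 2%. JCHAIN-low, ileum minus PBMC (19): 26 in DESeq2, 17 at the edge of 2% and 15 with ambient RNA subtracted, each with more lower than higher, 12 with sums per library and 12 without the library labelled whole ileum pig 1. JCHAIN-mid, ileum minus PBMC (6): 14 in DESeq2, 2 with total UMIs and 3 at 2%. The interaction (4): 15 in DESeq2, 5 with total UMIs (more negative), 8 with the replicate block, 2 and 2 without the library labelled whole ileum pig 1 and without both, 0 at 2%, and 8 with ambient RNA subtracted. PP minus non-PP in JCHAIN-low cells (29) gave 13 without the filter. Without either pig, fitted on the libraries of the other, the counts ran 0 to 0 for high minus mid, T minus low, JCHAIN-mid between tissues and the interaction, 25 to 29 for blood mid minus low, 3 to 6 for JCHAIN-low and 1 to 2 for T cells between tissues. The paired fit changed no other count by over 1.5 times. For these the cause was not tested, beyond the fewer samples or genes of each alternative.

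With total UMIs the differences of 5 members turned sign in high minus low, 1 in mid minus low, 39 in high minus mid, 4 in epithelial minus low, 12 in high minus epithelial, 4 in T minus low, 13 in the interaction, 3 between dissections in T cells, and 5, 2 and 17 between tissues in JCHAIN-low, T and JCHAIN-mid cells. Those that were called under TMM or total UMIs were, in high minus low, SRP14 (-0.34), CANX (-0.095), SRP72 (-1.45) and SEC11A (-1.14). In high minus mid they were PDIA3 (-0.85), SRP14 (-0.86), CALR (-0.75), ERP29 (-0.81), SEC61G (-0.68), KDELR2 (-0.67), PDIA6 (-0.70), DAD1 (-0.58), CRELD2 (-0.78) and RPN2 (-0.67). In high minus epithelial they were PDIA3 (-0.89), SRP14 (-0.14), SELENOS (-0.044), HSPA5 (-1.065), MANF (-0.17), SEC62 (-0.28), HERPUD1 (-0.64), CALR (-0.68), ERP29 (-0.14), KDELR2 (-0.49) and SEL1L (-0.30). SELENOS in T minus low ran from -0.12 to 0.051 without 1 pig and read -0.031 with sums per library, and SEC11C between tissues in JCHAIN-low cells ran from -0.38 to 0.11 without 1 pig.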

Other observations

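Cells with a CD3E UMI were kept out of the JCHAIN classes, yet 0.198% to 1.77% of them per library had a JCHAIN share of at least 0.5%. In the ileum, such CD3E-positive cells with a JCHAIN share of 10% to 20% held the 49 genes at 6.90% (pig 1) and 5.17% (pig 2) of UMIs outside the dominant features, and those above 20% at 6.77% and 6.87%, near the JCHAIN-high cells and unlike the T cell class as a whole. The 3 JCHAIN-high cells of blood gave 5.85% in pig 1 (1 cell) and 7.20% in pig 2 (2 cells). Non-PP libraries held the highest JCHAIN-low sums of the ileal libraries, at 0.961% and 1.00%, beside the different makeup of that class there.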
